A study of Mus musculus with 62 samples.

Results

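Chronic ethanol exposure was compared with chronic saline exposure in the ventral striatum (VS). The comparison used 6 of the 62 RNA-seq libraries of the series, chosen by their labelled tissue, paradigm and treatment, with 3 mice that received ethanol and 3 that received saline. All were male C57BL/6J mice of 8 to 10 weeks. Each received 10 daily intraperitoneal injections of 2 g/kg ethanol (20% in saline) or of saline alone, and was killed 4 h after the last. The saline mice therefore also carry the handling and injections. The saline libraries came from mice numbered 3, 5 and 6 and the ethanol libraries from mice numbered 1, 4 and 6, which are different animals although a number is shared. The VS was cut from frozen coronal slices with a sample corer, so a library holds whatever tissue lay within the cut. A further 6 VS libraries, 3 after 1 saline and 3 after 1 ethanol injection, were used for comparison, and 6 saline cortex libraries (3 acute and 3 chronic) as a reference for cortical RNA.

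The VS, which includes the nucleus accumbens, is the part of the striatum that receives dopamine from the ventral tegmental area and is known for its role in reward. Most of its neurons are GABAergic spiny projection neurons. Those with D1 dopamine receptors also express tachykinin and dynorphin genes, and those with D2 receptors express enkephalin. Glutamatergic neurons are found in the adjoining pallium (cortex, claustrum and piriform areas) and not in the striatum, so their genes report on pallial tissue in the cut. Ethanol also raises circulating glucocorticoids in rodents, and Fkbp5 and Plin4 are known glucocorticoid-responsive genes.

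The upstream sequences of Fkbp5 and Plin4 are shown because both genes were higher after chronic ethanol, as described further on. Each is the 250 bases before 1 annotated start in RefSeq (GRCm38.p6, minus strand, printed 5′ to 3′), at chr17:28486150-28486399 for Fkbp5 and chr17:56109783-56110032 for Plin4. Isoforms of Fkbp5 begin at several positions, such as 28705123 (Fkbp5-201) and 28736498 (Fkbp5-202) in GRCm39, and only 1 window was searched.
Fkbp5: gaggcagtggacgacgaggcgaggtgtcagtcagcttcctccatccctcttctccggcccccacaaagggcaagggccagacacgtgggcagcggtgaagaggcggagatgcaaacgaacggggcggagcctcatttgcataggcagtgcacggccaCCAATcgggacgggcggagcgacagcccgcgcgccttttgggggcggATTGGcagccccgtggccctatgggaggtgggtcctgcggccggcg
Plin4: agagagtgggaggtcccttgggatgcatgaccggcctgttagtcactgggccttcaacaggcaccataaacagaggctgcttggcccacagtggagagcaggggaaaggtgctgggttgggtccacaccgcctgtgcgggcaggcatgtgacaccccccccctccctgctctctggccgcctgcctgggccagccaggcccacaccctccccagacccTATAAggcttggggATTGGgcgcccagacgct
The capitals mark CCAAT (or ATTGG on the other strand) and TATAA, motifs known from promoters. CCAAT occurred 2 times upstream of Fkbp5 and 1 time upstream of Plin4, and TATAA occurred upstream of Plin4 only, 27 bases before the start. Of 32851 RefSeq promoters of this length, 33.9% held CCAAT and 22.8% held TATAA on either strand. The letters ACANNNTGT, the paired half-sites of the glucocorticoid response element, were in neither window and in 5.84% of all promoters, which says nothing about elements elsewhere in these genes.

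The 6 libraries held 11774367 to 20428676 gene counts, and mitochondrially encoded genes took 7.42% to 8.91% of them. The striatal identity of the tissue was clear in every library: the 12 spiny projection neuron genes (Ppp1r1b, Pde10a and others) summed to 6055 to 9701 CPM (counts scaled to library size) in saline and 9186 to 10020 CPM in ethanol libraries, and none of the genes on the 18 cell type lists used was at 0 in all 6 libraries.

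The saline libraries were far less alike than the ethanol libraries. The pallial excitatory neuron genes, 10 transcription factors and transporters such as Tbr1, Neurod6 and Slc17a7, summed to 774 CPM in saline 3 and 470 CPM in saline 6, but to 101 CPM in saline 5. In the ethanol libraries they summed to 45.4, 105 and 46.8 CPM. Saline 5 thus lay with the ethanol libraries in this respect. Taken as a median percentage of the level in the saline cortex libraries, which were made with another kit, the pallial genes reached 34.4% in saline 3, 5.03% in saline 5 and 18.9% in saline 6, against 0.780%, 4.18% and 1.06% in ethanol 1, 4 and 6. The same held after a single injection: acute saline libraries stood at 17.1%, 24.3% and 25.1% and acute ethanol libraries at 6.75%, 0.938% and 2.47%.

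Other markers set single libraries apart. Saline 5 had the highest level of the septal and basal forebrain genes (Zic1, Lhx8 and others), 2.15 times the mean of the 6 libraries on a log scale, and the lowest of the spiny projection neuron genes, 0.678 times. Saline 6 held choroid plexus RNA: Ttr, the transthyretin gene of that tissue, was at 2688 CPM there, at 5.86 and 4.64 CPM in the other saline libraries and at 0.288 to 1.47 CPM in the ethanol libraries. The 8 choroid plexus genes tested stood at 9.83 times the mean in saline 6 and the 6 ependymal genes at 4.12 times. What part of the results below these differences account for was not tested. Counts of calls are given with and without saline 5, and the genes and lists are set against its removal further on. In bulk tissue, fewer cells of a type and less RNA per cell cannot be told apart.

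**Figure D1:**
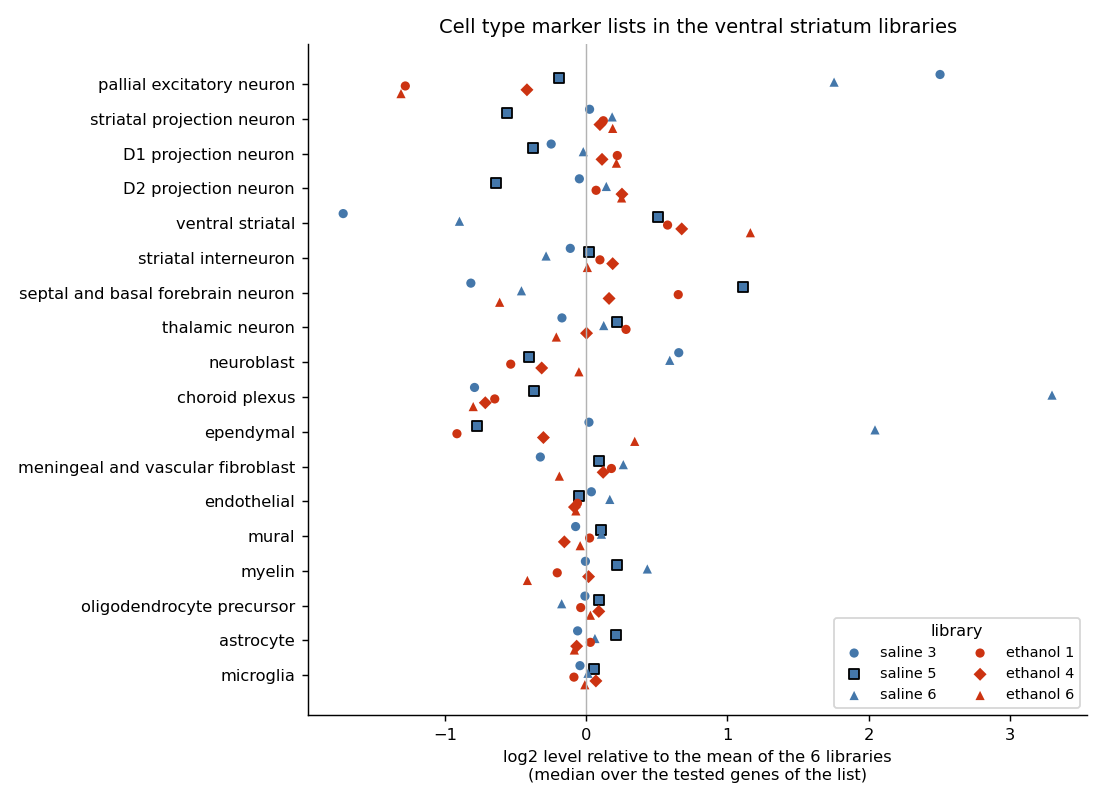
Level of each of the 18 cell type lists in the 6 VS libraries of the chronic paradigm, as the log2 of the level relative to the mean of the libraries (x axis; median over the tested genes of a list). Blue symbols are saline and red symbols ethanol libraries, and saline 5 is outlined in black; pallial genes are high in saline 3 and 6 only, choroid plexus genes in saline 6 only.

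How many genes differed depended on the test and on saline 5. Of 20331 genes tested, edgeR's quasi-likelihood test called 0 at a Benjamini-Hochberg FDR below 0.1 (0% of those tested), with a smallest FDR of 0.193, although 2023 genes (9.95%) had an unadjusted p below 0.05. DESeq2, the tool of the study, called 364 genes (1.79%): 158 were higher after ethanol (0.777%) and 206 lower (1.01%). Without saline 5, edgeR called 615 of 19948 genes (3.08%), 272 higher (1.36%) and 343 lower (1.72%). With any other library left out, edgeR called 0 genes. DESeq2 called 960 genes without saline 5 and 74 without ethanol 6, the extremes over the 6 libraries. Of the 364 DESeq2 genes, 239 were also called by edgeR without saline 5, which is 65.7% of the former and 38.9% of the latter. Since edgeR called no gene with all libraries, genes are described below as higher or lower, with the FDR of each tool.

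**Figure D2:**
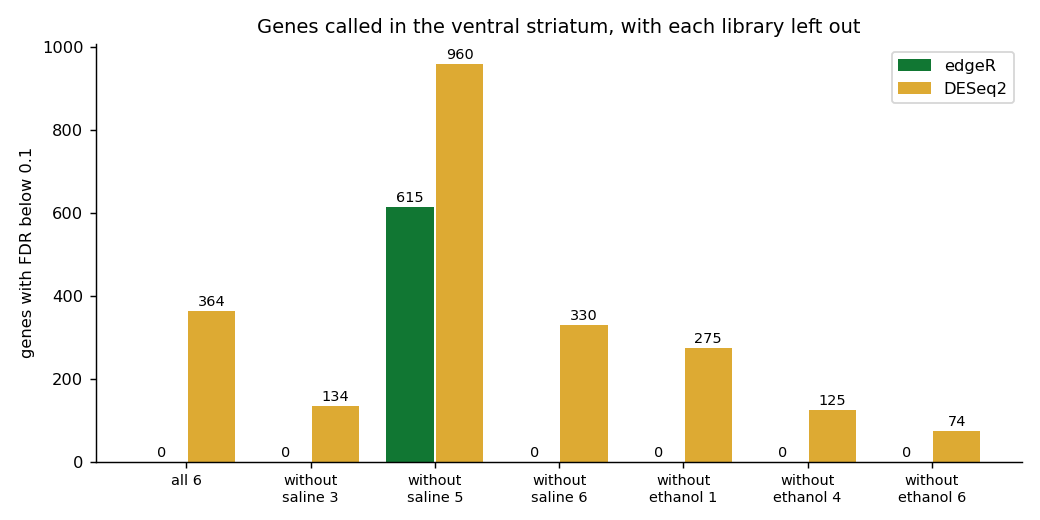
Number of genes with an FDR below 0.1 (y axis) with all 6 libraries and with each library left out in turn, by edgeR (green) and DESeq2 (yellow). edgeR calls 615 genes without saline 5 and 0 otherwise, while DESeq2 calls between 74 and 960.

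To separate genes that pallial tissue in the cut could carry, genes were divided by whether their mean CPM in the 6 saline cortex libraries was at least 2 times that in the 6 acute VS libraries. Of the genes tested, 2170 (10.7%) were in this cortex-higher class. They made up 84 of the 206 genes that DESeq2 called lower (40.8%) and 3 of the 158 it called higher (1.90%). At the other end, 87 of the 158 higher genes (55.1%) had at most 0.5 times the VS level in cortex, against 11.3% of all genes tested and 12.6% of the lower genes. The direction of change thus followed the cortex-to-VS ratio most clearly at its ends. The median log2 fold change was 0.15 over the 763 genes with less than 0.25 times the VS level in cortex. It was 0.03 both over the 1540 genes with 0.25 to 0.5 times and over the 9753 genes with 0.5 to 1 times. It was -0.04 over the 6105 genes with 1 to 2 times, -0.27 over the 1248 genes with 2 to 4 times and -0.29 over the 922 genes above that. Over all genes it was -0.01, and 51.2% of genes had a value below 0. Without saline 5 the medians of these bins were, in the same order, 0.20, 0.10, 0.04, -0.04, -0.25 and -0.24. The cortex libraries were not made with the directional kit, and the acute saline VS libraries themselves held pallial RNA, so the ratio of a pallial gene is smaller than it would be against VS tissue free of it.

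**Figure D3:**
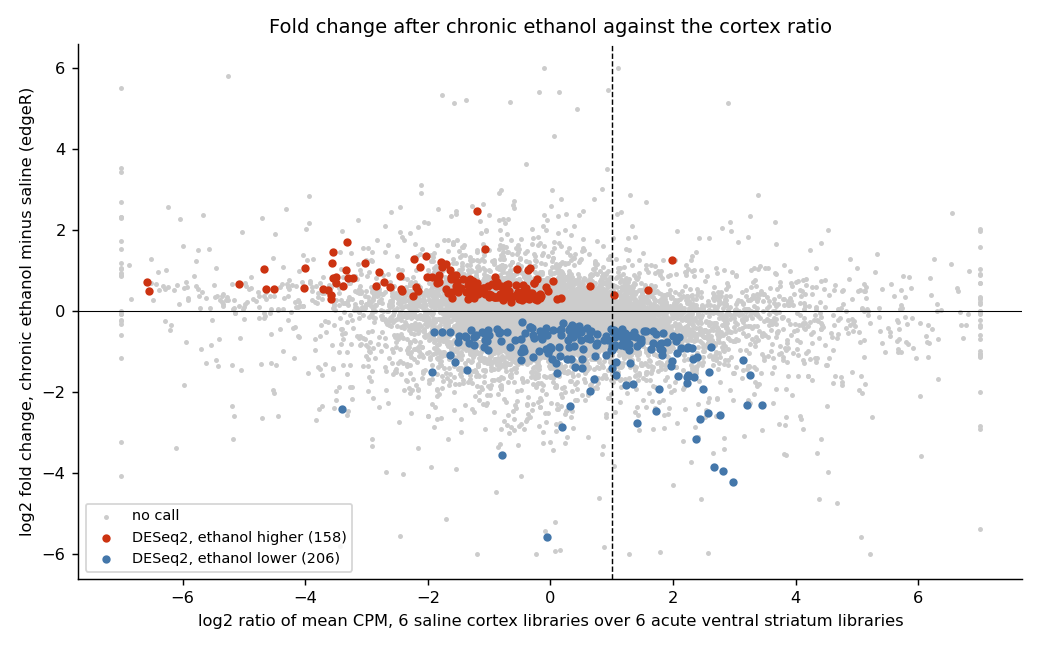
Log2 fold change, chronic ethanol minus saline, from edgeR (y axis, limited to 6 in size) against the log2 ratio of mean CPM in saline cortex over acute VS libraries (x axis, limited to 7 in size), 1 point per gene. Red points are the 158 genes higher and blue points the 206 genes lower by DESeq2, and the dashed line is the ratio of 2; nearly all red points lie left of it.

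In the cortex-higher class, the genes furthest down included Tbr1, Neurod6 and Neurod2 of the pallial list. Tbr1, a transcription factor of glutamatergic cortical neurons, was at 52.7, 6.96 and 32.4 CPM in saline 3, 5 and 6 and at 3.46, 5.54 and 1.07 CPM in ethanol 1, 4 and 6. The groups did not overlap, which was a condition of its selection here and was so for 16.1% of all genes tested. Saline 5 was only just above the highest ethanol library. The log2 fold change of Tbr1 was -3.16 ± 0.71 (SE, edgeR FDR = 0.242, DESeq2 FDR = 0.0515), and -3.62 without saline 5 (edgeR FDR = 0.00482). Neurod6 (log2 fold change -3.83) and Neurod2 (-3.94), transcription factors of the same neurons, had the same order of libraries, as did Smim43 (-4.21) and Ccn3 (-2.77), which encodes a matricellular protein. Npr3, the clearance receptor for natriuretic peptides, did not share it: it was at 4.11, 8.19 and 7.47 CPM in saline and at 1.73, 0.988 and 0.401 CPM in ethanol libraries, so that saline 5 was the highest of all. Its log2 fold change was -2.66 ± 0.48 (edgeR FDR = 0.237, DESeq2 FDR = 3.44e-05). As a list, 9 of the 10 pallial genes were lower and 1 was higher, with a median log2 fold change of -3.04. DESeq2 called 5 lower (Neurod2, Neurod6, Tbr1, Rorb and Slc30a3), against 1.01% of all genes lower. With all libraries edgeR called 0, and without saline 5 it called 8 lower, against 1.72% of all genes lower in that fit. After 1 ethanol injection all 10 were lower as well, with a median of -2.86, and DESeq2 called 7 of them against 0.889% of all genes in that comparison.

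Synaptic and channel genes with higher levels in cortex were lower too. Kcnj6, which encodes the GIRK2 subunit of a G protein-gated potassium channel that ethanol activates directly, was at 12.1, 7.39 and 8.92 CPM in saline and 2.30, 3.46 and 2.54 CPM in ethanol libraries. Every saline library was above every ethanol library by more than the range within ethanol. The log2 fold change was -1.76 ± 0.27 (edgeR FDR = 0.201, DESeq2 FDR = 2.20e-05), and DESeq2 called it whichever library was left out. Kcnj3, the GIRK1 partner, was lower by both groups' means (-0.72 ± 0.22, DESeq2 FDR = 0.0703) with overlapping groups. Both are cortex-higher, at 4.68 and 4.15 times the VS level, and of the 8 BK, SK and GIRK channel genes 7 were lower and 1, Kcnn3, was higher (0.36, edgeR FDR = 0.404). Shank1, a scaffold of the excitatory synapse with 3.32 times the VS level in cortex, was at 195, 171 and 138 CPM in saline and 117, 118 and 107 CPM in ethanol libraries. Its groups did not overlap, saline 5 included (-0.56 ± 0.12, edgeR FDR = 0.237, DESeq2 FDR = 0.00712). Among the 15 scaffold genes it was the only one DESeq2 called, and 9 were higher and 6 lower. Bdnf, the brain-derived neurotrophic factor gene that cortical neurons supply to the striatum, was also cortex-higher and lower (-1.92 ± 0.52, DESeq2 FDR = 0.0340), as was Gfra2, a receptor for neurturin (-0.94 ± 0.22, DESeq2 FDR = 0.00992). Tmem151b, a membrane protein gene, was at 86.8, 61.3 and 55.2 CPM in saline and 52.0, 46.3 and 37.4 CPM in ethanol libraries, with groups that did not overlap (-0.59 ± 0.18, edgeR FDR = 0.365, DESeq2 FDR = 0.0920). It had 2.37 times the VS level in cortex.

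The 3 cortex-higher genes that were higher after ethanol went against the direction of the pallial genes. Lamp5, a lysosome-associated membrane protein gene, was at 74.4, 71.5 and 82.7 CPM in saline and 91.6, 120 and 115 CPM in ethanol libraries (log2 fold change 0.52 ± 0.12, DESeq2 FDR = 0.0183). Dact2, an inhibitor of Wnt signalling, had a log2 fold change of 0.40 ± 0.09 (DESeq2 FDR = 0.0583) and Glt8d2, a glycosyltransferase family gene, one of 1.26 ± 0.28 (DESeq2 FDR = 0.0202). None of the 3 had overlapping groups, which was a condition of their selection here. Of the 158 genes that DESeq2 called higher, 157 did not overlap. edgeR called none of the 3 with or without saline 5.

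Outside the cortex-higher class, genes of the projection neurons of the VS were higher. Tac1, the substance P precursor gene of D1 neurons, was at 134, 117 and 144 CPM in saline and 199, 193 and 184 CPM in ethanol libraries. The lowest ethanol library exceeded the highest saline library by more than the saline spread. The log2 fold change was 0.55 ± 0.09 (edgeR FDR = 0.237, and 0.0261 without saline 5; DESeq2 FDR = 4.43e-04), and DESeq2 called it with any library left out. Penk, the enkephalin precursor gene of D2 neurons, had a log2 fold change of 0.56 ± 0.15 (DESeq2 FDR = 0.0252) and Rarb, a retinoic acid receptor of projection neurons, one of 0.56 ± 0.16 (DESeq2 FDR = 0.0601). Pdyn, the dynorphin precursor gene, was at 63.0, 114 and 147 CPM in saline and 173, 239 and 246 CPM in ethanol libraries, without overlap, yet DESeq2 did not call it (1.03 ± 0.27, FDR = 0.142). All 5 D1 genes, all 5 D2 genes, all 11 dopamine signalling genes and 11 of 12 general projection neuron genes were higher, with medians of 0.32, 0.36, 0.27 and 0.21. These lists share genes and were lowest in saline 5: without it their medians were 0.47, 0.12, 0.06 and 0.02, so most of the difference in the D2, dopamine signalling and general lists was carried by that library.

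Genes that mark the ventral rather than the dorsal striatum had larger fold changes than the other neuronal lists that were higher. Crym, which encodes a thyroid hormone-binding protein, was at 179, 118 and 144 CPM in saline and 232, 274 and 384 CPM in ethanol libraries. It did not overlap and was called by DESeq2 with any library left out (1.01 ± 0.20, edgeR FDR = 0.237, DESeq2 FDR = 1.83e-04). Cartpt, the gene of the CART peptide, was at 4.36, 25.4 and 3.74 CPM in saline and 41.2, 39.3 and 40.2 CPM in ethanol libraries. Here saline 3 and 6, the libraries rich in pallial RNA, were the low ones and saline 5 lay between them and the ethanol libraries (1.85 ± 0.59, edgeR FDR = 0.366, and 1.37e-05 without saline 5). Dlk1, Drd3 and Nts completed the list, and all 5 genes were higher, with a median of 1.28 and of 1.93 without saline 5, when edgeR called all 5 (against 1.36% of all genes higher in that fit). The position of the cut within the striatum was not recorded in the labels, and its part in these differences cannot be told apart from that of ethanol.

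The higher genes that the naming rule picked outside the cortex-higher class by their DESeq2 calls had low levels in cortex. That rule admitted only genes without overlap of the groups. Wfs1, a membrane protein of the endoplasmic reticulum, was at 130, 254 and 183 CPM in saline and 336, 513 and 621 CPM in ethanol libraries (1.38 ± 0.27, edgeR FDR = 0.237, DESeq2 FDR = 0.0201). Trhr, a receptor for thyrotropin-releasing hormone, was at 3.74, 6.81 and 2.55 CPM in saline and 14.0, 12.1 and 10.6 CPM in ethanol libraries (1.47 ± 0.32, DESeq2 FDR = 0.00259). Stard5, a lipid transfer protein gene, was at 8.78, 15.7 and 7.13 CPM against 27.8, 23.3 and 26.8 CPM (1.29 ± 0.26, DESeq2 FDR = 4.97e-04). In each of the 3 genes saline 5 was the saline library nearest to the ethanol libraries. Dio3, the deiodinase that inactivates thyroid hormone, followed the same order (1.72 ± 0.48, DESeq2 FDR = 0.0489). Xlr3b, at 0.872, 0.725 and 1.70 CPM in saline and 3.31, 8.55 and 6.08 CPM in ethanol libraries, had the largest value of these genes (2.47 ± 0.45, DESeq2 FDR = 1.83e-04). Its reads are shared with near-identical copies on the X chromosome and were counted for each, so the value is uncertain for this copy.

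Several genes that were lower outside the cortex-higher class were, like the pallial genes, high in saline 3 and 6 and low in saline 5. Nr4a2, a nuclear receptor with high expression in the claustrum and deep cortical layers, was at 27.3, 3.48 and 48.7 CPM in saline and 1.87, 3.16 and 1.60 CPM in ethanol libraries. Saline 6 was the highest here, not saline 3 as for Tbr1, while saline 5 was again just above the highest ethanol library (-3.54 ± 0.78, edgeR FDR = 0.237, and 7.17e-04 without saline 5; DESeq2 FDR = 0.0222). Saline 5 was also the lowest saline library for Nxph4, a neurexophilin (-2.40), and Ntng2, a netrin-G (-1.96, DESeq2 FDR = 1.07e-04). Col24a1, a collagen gene, was alike in the 3 saline libraries, at 3.74, 3.62 and 3.74 CPM in saline and 1.73, 0.988 and 0.802 CPM in ethanol libraries (-1.66 ± 0.35, DESeq2 FDR = 0.0119). Prss35 (-2.86) and Frem1 (-2.34), a protease family and an extracellular matrix gene, each had 1 high saline library, at 8.10 CPM in saline 3 and 11 CPM in saline 6, against at most 1.87 CPM in the other saline libraries.

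**Figure D4:**
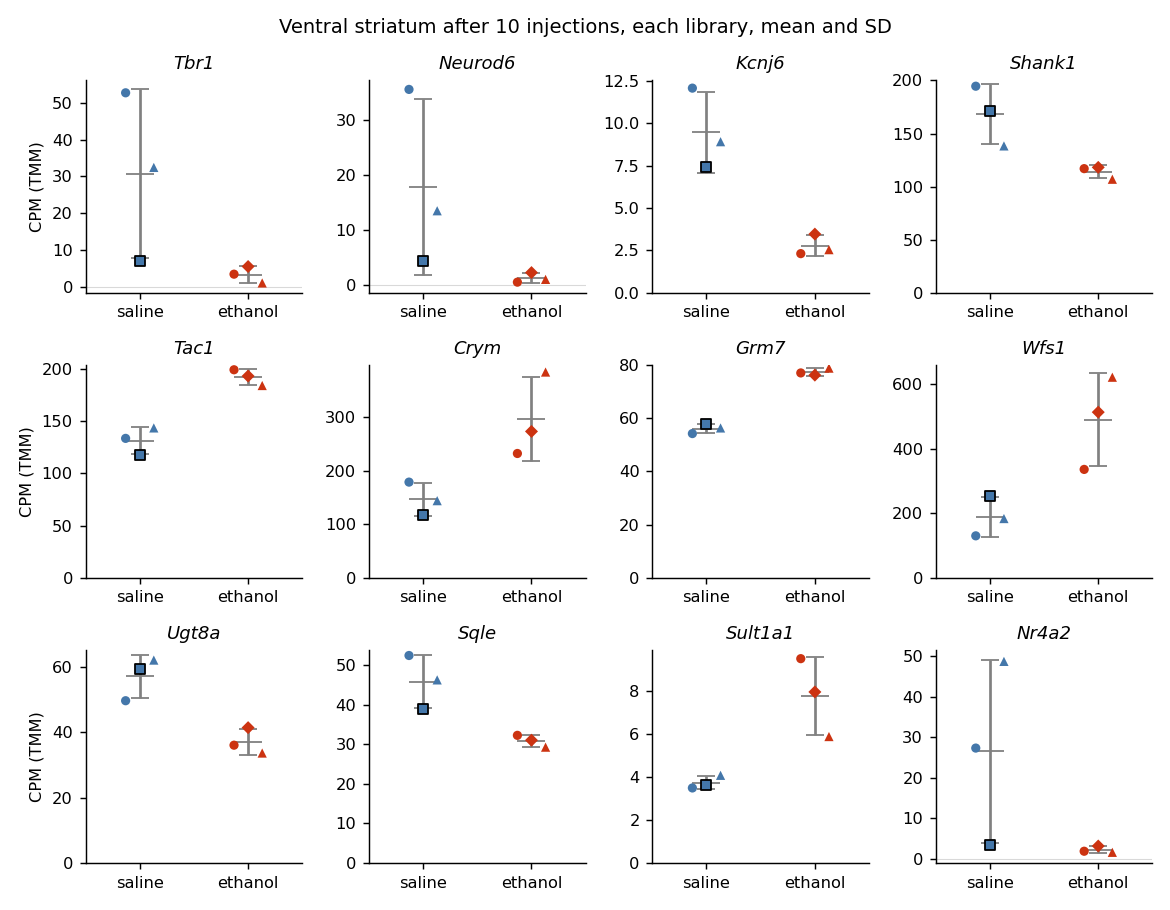
CPM (TMM-scaled, y axis) of 12 genes in each of the 3 saline (blue) and 3 ethanol (red) libraries, with the mean and SD as bars; saline 5 is outlined in black. Saline 5 lies near the ethanol libraries for Tbr1, Neurod6 and Nr4a2 and with the other saline libraries for Tac1, Grm7, Sult1a1 and Ugt8a.

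The glucocorticoid response list held 3 genes that DESeq2 called higher (Fkbp5, Plin4 and Sult1a1), against 0.777% of all genes higher. Fkbp5 (ENSMUSG00000024222, chromosome 17, 28618068 to 28736498 of GRCm39 in the deposited gene table), a co-chaperone that dampens glucocorticoid receptor signalling, was at 36.9, 36.8 and 46.9 CPM in saline and 58.1, 62.2 and 57.9 CPM in ethanol libraries. The groups did not overlap, with means of 40.2 ± 5.79 and 59.4 ± 2.42 CPM (SD, n = 3). The log2 fold change was 0.57 ± 0.11 (edgeR FDR = 0.237, and 0.0734 without saline 5; DESeq2 FDR = 0.00823). Plin4, a lipid droplet coat protein gene (ENSMUSG00000002831, chromosome 17, 56407591 to 56416803), was at 8.47, 9.28 and 4.92 CPM in saline and 18.6, 19.9 and 14.7 CPM in ethanol libraries, a 2.33-fold difference without overlap (1.22 ± 0.24, edgeR FDR = 0.237, and 0.0264 without saline 5; DESeq2 FDR = 8.00e-04). Sult1a1, a sulfotransferase, was at 3.49, 3.62 and 4.08 CPM against 9.51, 7.96 and 5.88 CPM (1.06 ± 0.24, DESeq2 FDR = 0.0250). In all 3 genes saline 5 was close to saline 3, so these differences did not follow the pallial order. Of the 16 genes on the list 13 were higher and 3 lower, the median was 0.16, and DESeq2 called only these 3. Tsc22d3, another receptor target, stood at 0.19 ± 0.12 (edgeR FDR = 0.665). Plin4 was alone among the 4 perilipins tested, the other 3 being lower, none of them by a call. Tgm2, a transglutaminase gene, had a log2 fold change of 0.60 ± 0.22 that neither tool called (edgeR FDR = 0.428, DESeq2 FDR = 0.289).

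The values after 1 injection were of like size for Fkbp5 and Plin4. The acute log2 fold change was 0.58 for Fkbp5 and 1.40 for Plin4. The chronic minus acute difference, fitted as an interaction, was -0.01 (edgeR FDR = 0.999) and -0.18 (edgeR FDR = 0.997), which does not show that the values are equal. The acute groups of Plin4 overlapped, at 5.86 to 21.4 CPM with saline and 19.7 to 52.4 CPM with ethanol (scaled over all libraries). Those of Fkbp5 did not. Both genes had lower means in chronic than in acute saline libraries, at 39.0 ± 5.57 against 50.2 ± 1.10 CPM for Fkbp5 and 7.33 ± 2.25 against 13.7 ± 7.77 CPM for Plin4 (SD, n = 3, scaled over all libraries). For Plin4 these groups overlapped, at 4.77 to 8.99 against 5.86 to 21.4 CPM. The differences between the saline groups were not tested. In the dorsal striatum, made with the same kit, 1 of the 3 chronic saline libraries was incomplete, with no count on 6 chromosomes (7, 8, 9, X, Y and MT), and was left out. Fkbp5 was at 39.9 and 45.6 CPM in the other 2 and at 48.3 to 66.5 CPM in the 4 chronic ethanol libraries, and Plin4 at 8.22 and 8.33 CPM against at least 10.1 CPM. Neither gene overlapped between these groups, and both were higher with ethanol, in mice that partly contributed to both regions. The share of all genes separated in this way was not counted. With the incomplete library the saline means were 43.2 ± 2.96 and 6.18 ± 3.62 CPM (n = 3). In the ventral hippocampus Fkbp5 overlapped, with chronic means of 80.8 CPM with saline and 83.3 CPM with ethanol. Plin4 overlapped in the cortex, at 3.15 to 8.44 CPM with saline and 7.74 to 16.99 CPM with ethanol. Both genes in the dorsal hippocampus, Fkbp5 in the cortex and Plin4 in the ventral hippocampus were higher with ethanol without overlap. These differences were not tested here.

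Genes of myelin and of cholesterol synthesis were lower. All 14 myelin genes were lower, with a median of -0.42 (-0.41 without saline 5), and DESeq2 called 3, against 1.01% of all genes lower. Their summed CPM overlapped, at 5984 to 8300 in saline and 4579 to 6056 in ethanol libraries. Ugt8a, which makes the galactolipids of myelin, was at 49.7, 59.6 and 62.2 CPM in saline and 36.1, 41.5 and 33.7 CPM in ethanol libraries (-0.62 ± 0.12, edgeR FDR = 0.237, DESeq2 FDR = 0.00455). Myrf, the transcription factor of myelination, stood at -0.45 ± 0.12 (DESeq2 FDR = 0.0867), also without overlap. Of 16 cholesterol synthesis genes 15 were lower, with a median of -0.19, and DESeq2 called Sqle, squalene epoxidase (-0.57 ± 0.12, FDR = 0.0158), and Hmgcs1, the synthase before the rate-limiting step (-0.43 ± 0.11, FDR = 0.0388). Sqle was at 52.5, 38.9 and 46.3 CPM in saline and 32.3, 31.0 and 29.3 CPM in ethanol libraries. None of these genes is in the cortex-higher class. By list, oligodendrocyte precursors did not share the shift (5 of 6 higher, median 0.09), nor did microglia (6 of 12 higher, median 0.00).

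Receptors for glutamate and GABA differed gene by gene. Grm7, a presynaptic metabotropic glutamate receptor, was at 54.2, 57.8 and 56.3 CPM in saline and 77.0, 76.2 and 78.8 CPM in ethanol libraries. The values lay close together within each group, and DESeq2 called it with any library left out (0.46 ± 0.08, edgeR FDR = 0.237, and 0.0270 without saline 5; DESeq2 FDR = 0.00259). Grik2, a kainate receptor subunit, was higher at 0.33 ± 0.09 (DESeq2 FDR = 0.0985). The lists as a whole did not lean that way: 10 of 15 ionotropic glutamate receptor genes were lower, 4 of 7 metabotropic ones higher and 9 of 12 GABA-A genes higher, with medians of -0.13, 0.10 and 0.10. Genes for ethanol and acetate metabolism (7 of 8 lower, median -0.24), histone acetylation and deacetylation (11 of 20 higher, median 0.04), the unfolded protein response (14 of 17 higher, median 0.12), the clock (12 of 15 higher, median 0.11), chaperones (8 of 13 higher, median 0.05) and activity response (11 of 16 lower, median -0.10) held no gene called by either tool. Acss2, which makes acetyl-CoA from acetate, stood at -0.36 ± 0.12 (edgeR FDR = 0.367, DESeq2 FDR = 0.238).

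The remaining lists are of other cell types in or next to the cut. All 8 choroid plexus genes tested and all 6 ependymal genes were lower (medians -3.18 and -1.21), beside the high levels in saline 6, and DESeq2 gave Ttr no adjusted p. All 5 neuroblast genes were lower (median -0.65), among them Dlx1, a homeobox gene of immature GABAergic neurons, at -0.90 ± 0.20 (DESeq2 FDR = 0.00669). Mural genes (8 of 9 lower, median -0.17), endothelial genes (6 of 9 lower, median -0.19) and astrocyte genes (7 of 11 lower, median -0.14) each leaned down by a little. In these 3 lists the summed CPM did not overlap between groups, as was so for 10 of the 38 lists (26.3%): it was 187 in every saline library and 154 to 170 in ethanol libraries for mural, 223 to 233 and 204 to 218 for endothelial, and 2818 to 2964 and 2533 to 2589 for astrocyte genes. By the median relative level per list, as plotted for the cell types, the endothelial groups were still apart, while the mural (0.950 to 1.08 in saline and 0.899 to 1.02 in ethanol libraries) and astrocyte groups (0.959 to 1.16 and 0.944 to 1.02) overlapped. DESeq2 called Slco1a4, an organic anion transporter of the blood-brain barrier (-0.43 ± 0.11, FDR = 0.0904), and Aqp4, the water channel of astrocyte endfeet (-0.46 ± 0.13, FDR = 0.0867). Lists with no call were those of striatal interneurons (7 of 9 higher, median 0.06), septal and basal forebrain neurons (5 of 6 lower, median -0.29), thalamic neurons (4 of 7 lower, median -0.19), fibroblasts (6 of 9 lower, median -0.13), endocannabinoid genes (5 of 7 lower, median -0.26), metallothioneins (3 of 5 higher, median 0.10) and mitochondrially encoded genes (5 of 9 higher, median 0.01). Of the 7 opioid peptide and receptor genes 6 were higher (median 0.20) and of the 9 neurotrophic genes 5 were lower (median -0.14).

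Leaving out saline 5 changed the direction of no gene with a DESeq2 call that is named here, but it set which of them edgeR called. Without it edgeR called Fkbp5, Plin4, Tac1, Crym, Grm7, Wfs1, Trhr, Stard5, Dio3, Xlr3b and Ets2 higher. It called Neurod2, Neurod6, Tbr1, Slc30a3, Smim43, Ccn3, Npr3, Kcnj3, Kcnj6, Shank1, Bdnf, Gfra2, Nr4a2, Nxph4, Ntng2, Prss35, Col24a1, Dlx1, Ugt8a, Sqle, Hmgcs1 and Neat1 lower. It did not call Sult1a1, Penk, Rarb, Grik2, Lamp5, Dact2, Glt8d2, Tmem151b, Miat, Rorb, Frem1, Myrf, Aqp4 or Slco1a4. The median of the septal and basal forebrain list turned from -0.29 to 0.80 without saline 5, that of the metabotropic glutamate receptors from 0.10 to -0.04 and that of the scaffold genes from 0.03 to -0.06. The striatal interneuron median moved from 0.06 to 0.36 and the activity response median from -0.10 to -0.44. The glucocorticoid median moved from 0.16 to 0.07 and that of cholesterol synthesis from -0.19 to -0.29. Other medians came closer to 0 without saline 5: -0.04 for thalamic, -0.02 for fibroblast, -0.01 for neurotrophic, -0.06 for astrocyte, -0.07 for ionotropic glutamate receptor and 0.06 for clock genes. Those of opioid (0.35), oligodendrocyte precursor (0.21), GABA-A (0.165), chaperone (0.13), histone acetylation (0.06), microglia (0.02) and mitochondrially encoded genes (0.02) moved away from 0.

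At the isoform level edgeR did make calls, on 9 of 108841 isoforms (0.00827%, with 9.01% at an unadjusted p below 0.05), 1 higher (0.000919%) and 8 lower (0.00735%). These 9 belong to 2 genes, which are described because of these calls. The 8 lower ones were all of Neat1, the nuclear long noncoding RNA that forms paraspeckles. Read pairs that overlap several isoforms were counted for each, so they are not 8 separate observations. Neat1-201 (chromosome 19, 5874736 to 5897132 in GRCm39) was at 24.4, 25.5 and 27.7 CPM in saline and 14.0, 11.3 and 9.73 CPM in ethanol libraries. All 3 saline libraries, saline 5 included, lay well above the ethanol libraries (-1.15 ± 0.13, edgeR FDR = 0.0568). Of the 11 Neat1 isoforms tested, all were lower, between -1.19 and -1.07. As a gene, Neat1 was at 78.4, 80.9 and 89.3 CPM in saline and 45.6, 37.1 and 31.7 CPM in ethanol libraries, and its FDR was the smallest edgeR gave any gene (-1.12 ± 0.13, edgeR FDR = 0.193, DESeq2 FDR = 2.47e-09). It was the 1 gene called when all 4 VS groups were fitted together. Of 7 other long noncoding RNAs looked at for comparison, Miat was also lower (-0.86 ± 0.25, DESeq2 FDR = 0.0222), with overlapping groups and 2.68 times the VS level in cortex. Malat1, the neighbour of Neat1, was at -0.03 ± 0.13 and Meg3 at 0.16 ± 0.21, and Rian, Mirg, Snhg11 and Kcnq1ot1 lay between -0.06 and 0.24, none called by either tool with all libraries.

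The higher isoform was Ets2-202, a short protein-coding isoform of an ETS family transcription factor gene, at 5.75, 6.2 and 6.35 CPM in saline and 11.3, 11.2 and 11.8 CPM in ethanol libraries (0.91 ± 0.10, edgeR FDR = 0.0568). All 6 Ets2 isoforms tested were higher, between 0.46 and 0.91, and DESeq2 called all 6. The gene was at 72.2, 75.8 and 80.8 CPM in saline and 114, 118 and 122 CPM in ethanol libraries, 1.55-fold higher (0.63 ± 0.08, edgeR FDR = 0.193, DESeq2 FDR = 2.46e-06). For both genes the edgeR isoform calls were lost with some libraries: 0 isoforms were called without saline 3, saline 6, ethanol 4 or ethanol 6, and 7 without ethanol 1. Without saline 5, 2887 isoforms were called. DESeq2 called 1107 isoforms (1.02%) of 396 genes, 436 higher (0.401%) and 671 lower (0.616%), and 83 of these genes had no DESeq2 call as a gene. All 11 Fkbp5 isoforms and both Plin4 isoforms were higher, 7 and 2 of them called by DESeq2. The largest isoform values repeated the gene results: Xlr3b-202, Xlr3b-203 and Stard5-205 were higher (2.45, 2.39 and 1.55) and Smim43-203, Smim43-201 and Nr4a2-206 lower (-4.84, -4.21 and -3.58).

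Neat1 and Ets2 were also set beside the acute libraries. Neat1 averaged 80.3 ± 5.47 CPM in chronic saline, against 44.2 ± 5.34 in acute saline, 48.2 ± 4.98 in acute ethanol and 37.2 ± 6.77 in chronic ethanol libraries (SD, n = 3 each, scaled over all libraries). Ets2 averaged 74.0 ± 4.09 CPM in chronic saline against 96.7 ± 8.85, 107 ± 13.1 and 115 ± 4.32 CPM in the same groups. In both genes the chronic saline libraries overlapped with none of the other 3 groups. Both genes were chosen for their difference between these chronic saline and chronic ethanol libraries, so that part of the separation was given by the choice. The choice also favours separation from the acute groups, and the share of all genes separated in this way was not counted. For Ets2 the chronic ethanol libraries, at 111 to 120 CPM, also lay wholly above the acute saline libraries, at 86.5 to 102.5 CPM. These differences between paradigms were not tested. In the dorsal striatum, with the incomplete saline library left out, Neat1 was at 112 and 163 CPM in the chronic saline libraries and at 49.5 to 143 CPM in the 4 ethanol libraries (mean 97.0 CPM), so the groups overlapped. With that library, at 44.3 CPM, the saline mean was 107 ± 59.5 CPM (n = 3), and without it 138 CPM. In the dorsal hippocampus the chronic means were 81.3 ± 16.2 CPM with saline and 61.9 ± 15.3 CPM with ethanol (n = 3 each). In the cortex they were 43.7 ± 10.1 and 36.9 ± 9.85 CPM. The ventral hippocampus went the other way, at 66.0 ± 15.8 CPM with saline and 78.5 ± 35 CPM with ethanol. The groups overlapped in each of these regions. Whether the difference itself varied between regions was not tested.

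**Figure D5:**
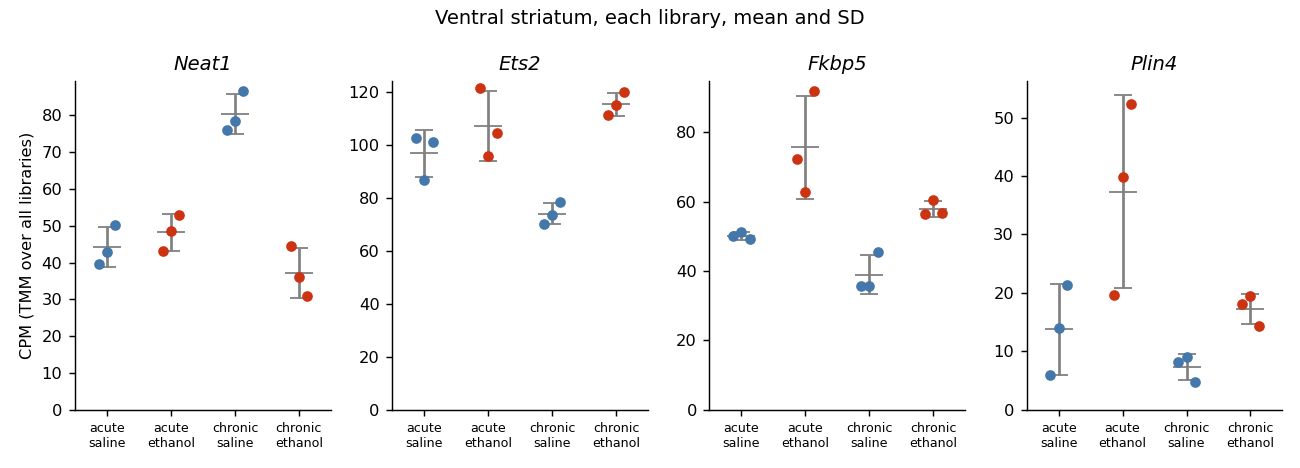
CPM of Neat1, Ets2, Fkbp5 and Plin4 (y axis, scaled over all libraries) in the 12 VS libraries, 3 in each of the 4 groups, with the mean and SD as bars. For Neat1 and Ets2, chosen for their difference between the chronic groups, the chronic saline libraries overlap with none of the other 3 groups. Fkbp5 and Plin4 have higher means with ethanol in both paradigms, and the acute groups of Plin4 overlap.

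The interaction of paradigm and treatment asked which ethanol differences changed between 1 and 10 injections. Of 20901 genes edgeR called 0 (0%), with 965 at an unadjusted p below 0.05 (4.62%) and a smallest FDR of 0.298. DESeq2 called 4 genes (0.0191%), all with a lower ethanol minus saline difference after 10 injections than after 1. They were Neat1 (-1.23 ± 0.19, edgeR FDR = 0.298, DESeq2 FDR = 6.43e-05), Prox1 (-1.32 ± 0.24), Cobll1 (-1.25 ± 0.24) and the unnamed gene model Gm55524. Among the genes picked by the naming rule, those with the smallest interaction p-values included Myrf (-0.91) and Xlr3b (2.38), each with an edgeR FDR of 0.971. Myrf was higher after 1 injection, at 0.46, and lower after 10, and neither tool called the difference.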

How the data were processed

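Before deposit, the authors used Cutadapt 5.0 for trimming, STAR 2.7.10a for alignment to GRCm39 and featureCounts 2.0.6 with the Ensembl annotation to count read pairs, a pair with several alignments or several overlapping features adding to each. The deposited tables hold these raw counts for 56415 genes and 218795 isoforms, not normalized. VS libraries were directional; the cortex libraries, used only to set the cortex-higher class, were not.

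A gene or isoform was tested where 2 or more libraries of a group reached 5 counts. Groups were compared by edgeR's quasi-likelihood test (4.0.16, limma 3.58.1, R 4.3.3, TMM, prior count 0.125), ethanol minus saline, on the 6 libraries, and on the 12 VS libraries for the interaction. DESeq2 (1.42.0) was the alternative that matches the study. Calls have a Benjamini-Hochberg FDR below 0.1. All values after ± are SE for log2 fold changes and SD for CPM. CPM are counts scaled to library size and TMM, except that summed levels and percentages of cortex use plain library totals. List levels add 0.5 CPM before taking logs. Both tests were run on simulated counts in which libraries of a group had the same expected levels. That check did not cover a library unlike the others of its group, such as saline 5. Tables were read with Python 3.11.15, pandas 2.3.3 and numpy 2.4.6, and plots drawn with matplotlib 3.10.9.

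The 38 gene lists (18 of cell types, 20 of functions), the classes and the naming rule were chosen with earlier results of these data known. Named were Fkbp5, Plin4, Tmem151b and Tgm2; in each cortex class and direction the 6 genes with the largest fold change among DESeq2 calls (edgeR calls where there were at least 12) that had a mean of at least 1 CPM, groups without overlap and a gene symbol that is no clone name; in each list the 4 smallest edgeR p-values and all DESeq2 calls; 3 isoforms in each direction by the same rule; and the 3 named genes with the smallest interaction p. Neat1, the other long noncoding RNAs, Ets2 and the other interaction genes were chosen after their values were seen. Libraries come from separate mice. Counts carry more than counting error, because no molecular identifiers were used.

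Alternatives were DESeq2, its size factors in edgeR, no filter, at least 10 counts in every library, all 4 VS groups in 1 fit, other class thresholds (1 and 4), no genes with an exon overlapping on the other strand, and each library left out. DESeq2 with each library left out and with the other class thresholds, and the dorsal striatum levels without an incomplete library, were added after the data were seen. Splicing and histone data of the study were not used here. Some genes picked by the naming rule are not reported here.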

Additional observations from a re-analysis of the deposited data

How the results depend on the processing

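The count of genes called was 0 by edgeR, also with DESeq2's size factors and with at least 10 counts in every library, 1 (Neat1) with all 4 VS groups in 1 fit, 569 with no filter and 364 by DESeq2. Of the 569, 14 were genes that the filter removes. With 1 library left out it ran from 0 to 615 by edgeR (615 without saline 5) and from 74 to 960 by DESeq2. In the cortex-higher class DESeq2 called 87 genes, edgeR with no filter 155, and the fits with 1 library left out 0 to 212, of which edgeR without saline 5 gave 149. The other genes held 277 DESeq2 calls, 414 with no filter, 1 with all 4 VS groups, and 0 to 748 with 1 library left out (466 by edgeR without saline 5). With a class threshold of any higher mean in cortex the DESeq2 calls divided into 150 and 214, and with 4 times into 28 and 336. Isoform calls were 9 by edgeR, also with DESeq2's size factors or the stricter filter, 1107 by DESeq2, 2509 with no filter, 106 with all 4 VS groups and 0 to 2932 with 1 library left out (0 to 2887 by edgeR). Interaction calls were 0 by edgeR, 4 by DESeq2, 195 with no filter and 0 to 2 with 1 library left out: Cbln4 and Peg10 without saline 5, and Neat1 without ethanol 1. With saline 3, 5 and 6 and ethanol 1, 4 and 6 left out in that order, DESeq2 called 134, 960, 330, 275, 125 and 74 genes. Of these, 25, 212, 73, 72, 44 and 24 were in the cortex-higher class and 109, 748, 257, 203, 81 and 50 outside it. In the same order it called 487, 2932, 1083, 856, 375 and 208 isoforms. The cause of these differences was not tested.

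Of the 56 named genes followed through 11 alternatives, 49 were called by DESeq2, 47 with no filter and 34 by edgeR without saline 5. Only uncalled noncoding RNAs changed sign with 1 library left out: Malat1 ran from -0.13 to 0.11 (with 0.04 without ethanol 4), Meg3 from -0.065 to 0.41, Snhg11 from -0.25 to 0.15 and Kcnq1ot1 from -0.17 to 0.25 (with -0.0088 without ethanol 6). No paired analysis was possible because the saline and ethanol groups share only 1 mouse number, of different animals. With 3 mice a group and saline libraries this unlike, small differences were not detectable at this depth and number.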
